A study of Saccharomyces cerevisiae with 9 samples.

Results

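The genes described here are 9 *ADE* genes of the purine synthesis pathway and *AAH1*, the gene for adenine deaminase, 10 genes taken by their locus names from the 6952 entries of a yeast transcript table. The *ADE* genes are *ADE4* (YMR300C), *ADE5,7* (YGL234W), *ADE8* (YDR408C), *ADE6* (YGR061C), *ADE2* (YOR128C), *ADE1* (YAR015W), *ADE13* (YLR359W), *ADE17* (YMR120C) and *ADE12* (YNL220W), and *AAH1* is YNL141W. They were chosen by function and each has 1 entry, that of its mRNA. mRNA levels were measured by RNA-Seq in 3 strains of *Saccharomyces cerevisiae*, with 3 libraries of each and 9 in all.

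All 3 strains are MATa haploids of the W303 background and share the alleles *ade2-1*, *can1-100* and *trp1-1* and *leu2* and *his3* frameshift alleles. WT cells carry *ura3-1* and intact *PAB1* and *PBP1*. In *pbp1Δ* cells *PBP1* was replaced by *URA3*. In *pab1Δpbp1Δ* cells *PAB1*, which encodes the cytoplasmic poly(A)-binding protein, was also replaced, by kanMX, in a *pbp1Δ* strain. *PAB1* is essential and its loss is tolerated without Pbp1, so *pbp1Δ* is the control for the loss of Pab1, and every difference between *pbp1Δ* and WT could also come with the *URA3* marker. Cells of each strain were grown in YEPD, a rich medium, and were collected in the same range of culture densities. The *pab1Δpbp1Δ* cells divide more slowly, so growth rate and genotype cannot be told apart here. The mutant libraries are described in the study's methods as separate isolates, with the *pab1Δpbp1Δ* isolates made from 1 *pbp1Δ* strain, and the WT libraries as technical replicates, although its results call all of them biological. P-values in comparisons with WT may therefore rest on technical spread on 1 side.

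Yeast builds purines on a ribose phosphate carrier (PRPP) in a linear pathway that ends at IMP, from which separate branches lead to AMP and to GMP. Transcription of many *ADE* genes is activated by Bas1, a Myb-related factor, with its homeodomain partner Pho2, and is lowered when cells take up adenine from the medium. Adenine that enters the cell is either joined to PRPP or deaminated to hypoxanthine by Aah1, and *AAH1* is known for being switched off as cells leave active growth. The *ade2-1* allele that all 3 strains carry holds a premature stop codon, which is expected to block the pathway at that step. The study reports more readthrough of normal stop codons in *pab1Δpbp1Δ* cells. Whether the block, and the need for adenine from the medium, is equal in the 3 strains was not tested. Adenine uptake and purine pools were not measured.

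Total expected counts were 73062345 to 87763579 per library in WT, 75215943 to 100361368 in *pbp1Δ* and 77751826 to 89196615 in *pab1Δpbp1Δ*. The deleted genes followed the labels. *PAB1* had 108388 to 144249 counts in the 6 libraries with the gene and 22 to 50 in *pab1Δpbp1Δ*, and *PBP1* had 22789 to 26638 counts in WT and 66 to 143 in the other libraries. Each of the 10 genes had between 1755 and 59396 counts in a library. Levels below are CPM, counts scaled to library size with edgeR's TMM method, and differences are log2 fold changes from edgeR's quasi-likelihood test on the 6 libraries of each pair of strains. A Benjamini-Hochberg adjusted p-value under 0.01 over all entries tested counted as a call. Replicate 1 of *pab1Δpbp1Δ* stood apart from the other 2 isolates. Its counts differed from theirs by a chi-square of 669.1 and 459.4 per degree of freedom, against 197.1 between the other 2 and 28.7 to 184.6 within the other strains. Values without it are given where they change the call of one of the 10 genes or of *ADE3*.

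The sequences upstream of the genes are shown first, because Bas1 and the general amino acid regulator Gcn4 both recognise sites with the core TGACTC. This word of 6 letters was searched on both strands (TGACTC or GAGTCA) from 250 bases before to 50 bases after the first base of each start codon, in the R64 genome and annotation of RefSeq. The sequence of the W303 strains themselves was not read. It was found in 7 of the 10 genes, compared with 479 of 6001 protein-coding genes (7.98%). The stretches that follow are written 5′ to 3′ on the strand of the gene, with the word in capitals, for the 4 genes that were called higher in *pab1Δpbp1Δ* than in *pbp1Δ*.
*ADE17*, word 177 bases before the start codon, chrXIII:509440-509469, minus strand: ccagaaatgaatTGACTCctctcataactt
*ADE2*, first word, 196 bases before the start codon, chrXV:566370-566399, minus strand: tatgctgacaaaTGACTCttgttgcatggc
*ADE2*, second word, 153 bases before the start codon, chrXV:566327-566356, minus strand: atactaagtgatTGACTCttgctgaccttt
*ADE1*, first word, 226 bases before the start codon, chrI:169137-169166, plus strand: aagcttattcacGAGTCAgtctgactcttg
*ADE1*, second word, 217 bases before the start codon, chrI:169146-169175, plus strand: cacgagtcagtcTGACTCttgcgagagatg
*ADE12*, word 222 bases before the start codon, chrXIV:234179-234208, plus strand: atccttttcattGAGTCAcagattaacaaa

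The words of *ADE1* lie on opposite strands so close together that each printed stretch holds both. Of the other members, *ADE5,7* and *ADE8* have a pair of words each and *ADE13* has 1, and these were not called in *pab1Δpbp1Δ* against *pbp1Δ*. Their stretches are shown for comparison with the set above.
*ADE5,7*, first word, 217 bases before the start codon, chrVII:56253-56282, plus strand: ttttttttcagtTGACTCgccccgtcggta
*ADE5,7*, second word, 184 bases before the start codon, chrVII:56286-56315, plus strand: acaagtgccgacTGACTCgtgtcctggtaa
*ADE8*, first word, 181 bases before the start codon, chrIV:1289023-1289052, minus strand: gattcgaatgagTGACTCgttgctagtgac
*ADE8*, second word, 167 bases before the start codon, chrIV:1289009-1289038, minus strand: actcgttgctagTGACTCtgacctgttttt
*ADE13*, word 216 bases before the start codon, chrXII:844054-844083, plus strand: cctccgcgagcaGAGTCAaacttcaaacaa

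No such word is in the windows of *ADE4*, *ADE6* and *AAH1*. Outside the members, *ADE3* has 1 word and *ADE16*, the paralog of *ADE17*, has none. A match is a description of letters and not of binding, and its absence says only that these letters are not in this window.

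**Figure D1:**
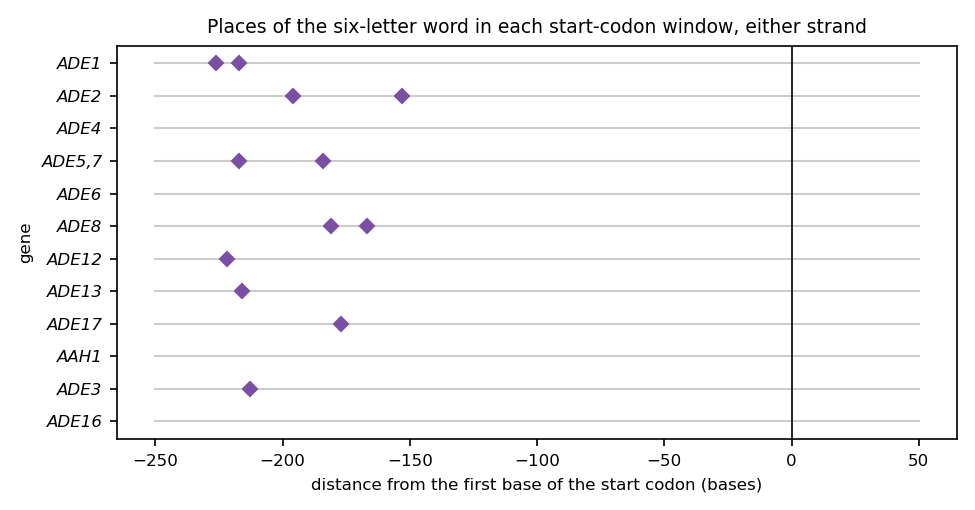
Places of the word TGACTC, on either strand (diamonds), in windows from 250 bases before to 50 bases after the start codon of the 10 genes and of *ADE3* and *ADE16*. The horizontal axis is the distance in bases from the first base of the start codon. All words lie between 153 and 226 bases before it, and *ADE4*, *ADE6*, *AAH1* and *ADE16* have none.

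Loss of Pab1 in the *pbp1Δ* background did not move the purine genes in 1 direction. Of the 10 genes, *ADE17*, *ADE2*, *ADE1* and *ADE12* rose, *AAH1* fell, and 5 were not called. Of these 5, *ADE4*, *ADE6* and *ADE13* were lower with an adjusted p under 0.05 or with DESeq2, which made 4 higher and 4 lower. Over all entries tested in this comparison, edgeR called 18.0% higher and 16.7% lower, 2285 of 6573 in either direction. DESeq2 called 3116 of 6864 entries in either direction. The share at an adjusted p under 0.05 is not given here. For 8 of the 10 genes every library of one strain lay above every library of the other, as for 64.7% of all entries, so such separation is common here and is not a result about these genes. The median log2 fold change of the 10 was 0.00, beside 0.03 over all entries, with members from -1.49 to 2.37. The 10 genes together took 0.163% ± 0.00684 (SD, n = 3) of all counts in WT, 0.164% ± 0.0104 in *pbp1Δ* and 0.189% ± 0.0137 in *pab1Δpbp1Δ*. These shares are of raw library totals and are not TMM-scaled. The TMM factor was higher in every *pab1Δpbp1Δ* library than in any other library, which lowers the scaled levels of that strain. The higher share there is therefore not read as a rise of the 10 genes in CPM.

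**Figure D2:**
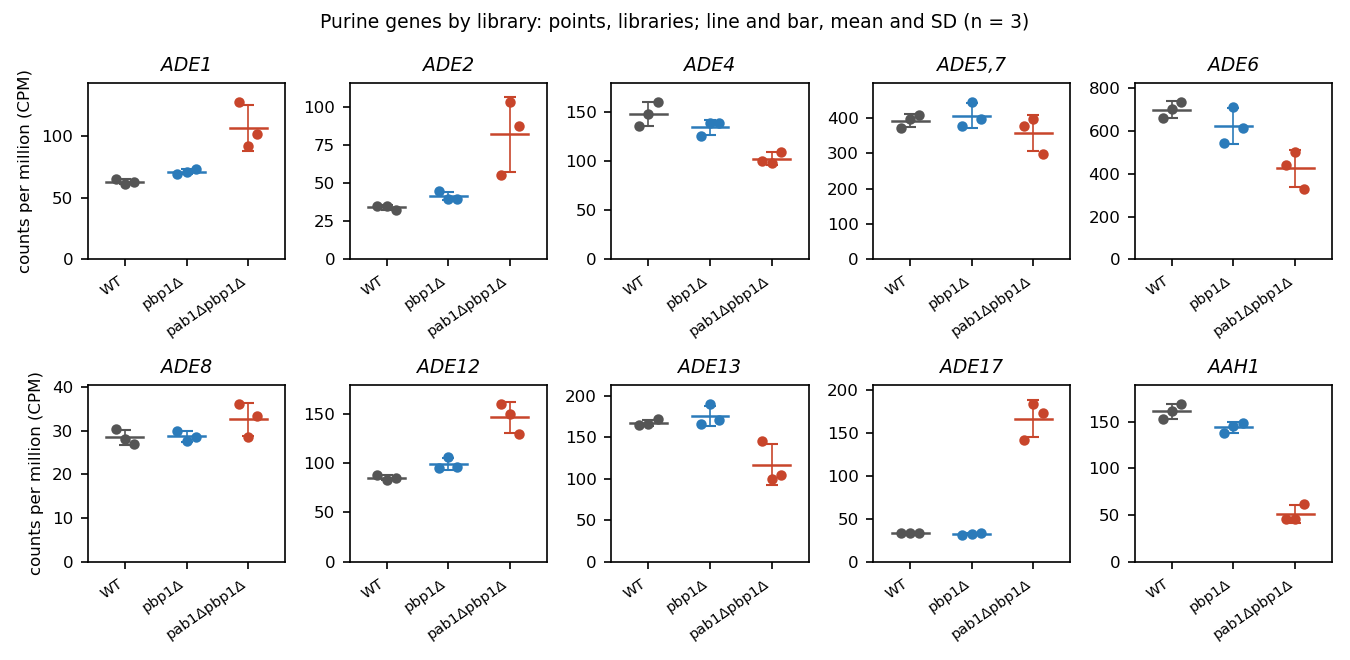
Levels of the 10 genes in CPM (TMM-scaled counts, vertical axis from 0) in WT, *pbp1Δ* and *pab1Δpbp1Δ*. Points are libraries, horizontal lines means and bars SD (n = 3). *ADE17* lies at 30.8 to 33.7 CPM in the 6 libraries with Pab1 and at 142.5 to 183.8 without it, and *AAH1* at 137.4 to 168.7 with Pab1 and at 45.2 to 62.1 without it.

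*ADE17* had the largest rise of the 10. It encodes one of a pair of paralogous enzymes with AICAR transformylase and IMP cyclohydrolase activity, which carry out the last steps to IMP. Its levels were 33.2, 33.5 and 33.0 CPM in WT, 30.8, 32.4 and 33.7 CPM in *pbp1Δ*, and 142.5, 183.8 and 173.5 CPM in *pab1Δpbp1Δ*. The 3 *pab1Δpbp1Δ* libraries were far above the other 6, and WT and *pbp1Δ* overlapped. The rise over *pbp1Δ* was 5.15-fold (log2 fold change 2.37, SE 0.12, adjusted p = 3.12e-05 by edgeR), and the call held under all 15 alternatives, with log2 fold changes from 2.29 to 2.55.

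*ADE16* (YLR028C), which encodes the other enzyme of the pair, moved the opposite way. Its levels were 327, 326.2 and 341.9 CPM in WT, 304.8, 330.6 and 311.6 CPM in *pbp1Δ*, and 191.3, 163.2 and 185.8 CPM in *pab1Δpbp1Δ*. All *pab1Δpbp1Δ* libraries lay below all others, and the fall from *pbp1Δ* was 1.75-fold (log2 fold change -0.81, SE 0.11, adjusted p = 0.000757). The coding sequences of the pair are 1776 and 1779 bases long and 74.8% identical when aligned, the longest identical run is 19 bases, and no stretch of 75 bases, the length of a read, occurs in both or anywhere else in the genome. Reads of one copy are therefore not exact matches to the other.

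Per length, the pair went from unequal to nearly equal. The share of *ADE17* in the summed FPKM of *ADE16* and *ADE17* was 9.75%, 9.85% and 9.32% in WT, 9.71%, 9.46% and 10.3% in *pbp1Δ*, and 44.2%, 54.5% and 49.9% in *pab1Δpbp1Δ*. FPKM is the deposited value scaled to transcript length and to the reads of a library, and a ratio of 2 genes within a library does not depend on how libraries are scaled. The log2 ratio of *ADE17* to *ADE16* was -3.20 in *pbp1Δ* and -0.03 in *pab1Δpbp1Δ*, a difference of 3.17 (two-sided exact permutation test, p = 0.10, which is the smallest p that 20 arrangements of 3 against 3 libraries allow). Between *pbp1Δ* and WT the difference was 0.03 (exact permutation test, p = 0.70). The sum of both genes depended on the scale. In TMM-scaled CPM it was 359.7 to 375.0 in WT, 335.6 to 363.0 in *pbp1Δ* and 333.8 to 359.3 in *pab1Δpbp1Δ*, and the ranges of the last pair overlapped. In FPKM, which is not TMM-scaled, it was 167.9 to 174.4 in WT, 166.3 to 173 in *pbp1Δ* and 199.4 to 240.8 in *pab1Δpbp1Δ*, without overlap between the last pair.

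**Figure D3:**
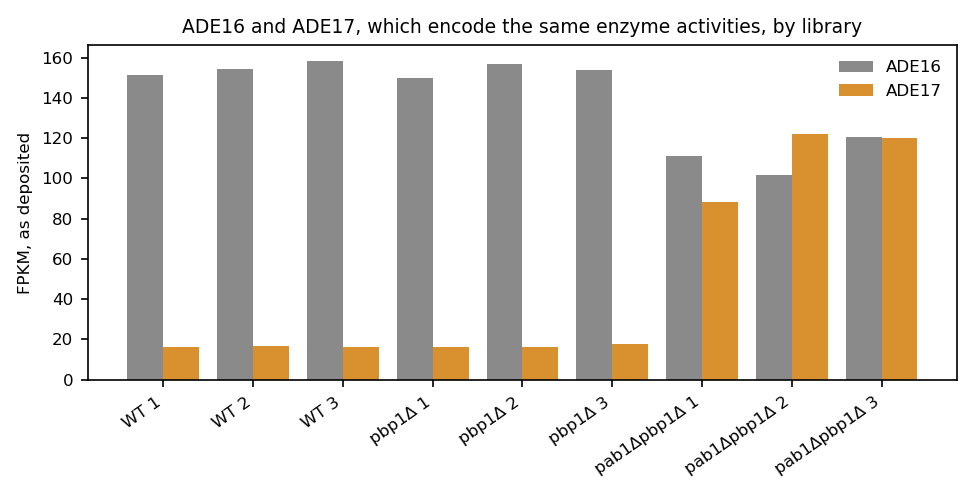
Deposited FPKM (vertical axis, from 0) of *ADE16* (grey bars) and *ADE17* (orange bars) in each of the 9 libraries. In WT and *pbp1Δ* libraries *ADE17* lies between 16.15 and 17.73 FPKM beside *ADE16* at 150.1 to 158.2, and in *pab1Δpbp1Δ* libraries *ADE17* lies between 88.2 and 122 beside *ADE16* at 101.7 to 120.7. Bars are to be compared within a library, since FPKM is not TMM-scaled.

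The steps just before were called higher for *ADE2* and *ADE1* and not for *ADE13*. *ADE2* encodes the enzyme that carboxylates AIR, the step that the stop codon of these strains is expected to block. Its mRNA was at 35.2, 34.9 and 32.5 CPM in WT, at 44.9, 39.9 and 39.9 CPM in *pbp1Δ*, and at 55.3, 103.3 and 87.7 CPM in *pab1Δpbp1Δ*. The strains did not overlap, and the spread in *pab1Δpbp1Δ* was wide, with replicate 1 near the highest *pbp1Δ* library and the other isolates well above. The rise over *pbp1Δ* was 1.98-fold (log2 fold change 0.98, SE 0.21, adjusted p = 0.00554 by edgeR). It was 1.196 on the log2 scale without replicate 1 of *pab1Δpbp1Δ*.

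*ADE1* encodes SAICAR synthetase, the enzyme after Ade2. Its levels were 64.8, 61.1 and 62.2 CPM in WT, 68.8, 70.9 and 73.2 CPM in *pbp1Δ*, and 127.2, 91.3 and 101 CPM in *pab1Δpbp1Δ*. Here replicate 1 was the highest of the *pab1Δpbp1Δ* libraries, the reverse of *ADE2*, and no library of that strain overlapped with another strain. The rise over *pbp1Δ* was 1.5-fold (log2 fold change 0.59, SE 0.13, adjusted p = 0.00743).

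*ADE13* encodes adenylosuccinate lyase, which acts after Ade1 and again in the branch from IMP to AMP. It was at 165.2, 165.9 and 171.7 CPM in WT, 166.1, 190 and 171 CPM in *pbp1Δ* and 145.1, 100.2 and 105 CPM in *pab1Δpbp1Δ*. The *pab1Δpbp1Δ* libraries were all below the others, with replicate 1 nearest to them. The log2 fold change against *pbp1Δ* was -0.59 (SE 0.16, adjusted p = 0.0134), which missed the threshold. Without replicate 1 of *pab1Δpbp1Δ* it was -0.78 (adjusted p = 3.53e-05), and *ADE13* then passed, as it did under 4 of the 15 alternatives in all. Under upper-quartile scaling it was -0.41 (adjusted p = 0.0427), and without *pbp1Δ* replicate 2 it was -0.53 (adjusted p = 0.0578).

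*ADE12* encodes adenylosuccinate synthetase, the first enzyme from IMP to AMP and the partner of Ade13 in that branch. Its levels were 88.1, 82.5 and 85.4 CPM in WT, 95.1, 106.2 and 96.3 CPM in *pbp1Δ*, and 159.9, 149.8 and 129.7 CPM in *pab1Δpbp1Δ*. The 3 strains formed separate steps without overlap. The rise from *pbp1Δ* to *pab1Δpbp1Δ* was 1.48-fold (log2 fold change 0.56, SE 0.11, adjusted p = 0.00435).

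The enzymes of the first steps were not called against *pbp1Δ*. *ADE4* encodes PRPP amidotransferase, the first and regulated step. It was at 135.3, 147.9 and 160.2 CPM in WT, at 125.4, 138.6 and 139.1 CPM in *pbp1Δ* and at 100, 97.6 and 109.6 CPM in *pab1Δpbp1Δ*. Its log2 fold change against *pbp1Δ* was -0.39 (SE 0.10, adjusted p = 0.0108), just outside the threshold and without overlap between the libraries. It passed under 5 of the 15 alternatives, among them without replicate 1 of *pab1Δpbp1Δ* (-0.38, adjusted p = 0.00417). Under upper-quartile scaling it was -0.21 (adjusted p = 0.0901), and without *pbp1Δ* replicate 2 it was -0.37 (adjusted p = 0.0552). *ADE6* encodes FGAM synthetase and had the highest mean CPM of the 10 in each strain. It ranged from 660.4 to 736.1 CPM in WT, from 542.2 to 712.1 CPM in *pbp1Δ* and from 329 to 503.1 CPM in *pab1Δpbp1Δ* (log2 fold change against *pbp1Δ* -0.55, SE 0.18, adjusted p = 0.0344).

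The other 2 genes of the early steps were the only members whose *pab1Δpbp1Δ* and *pbp1Δ* libraries overlapped. *ADE5,7* encodes a protein with both GAR synthetase and AIR synthetase activity, and *ADE8* encodes GAR transformylase. *ADE5,7* ranged from 373.2 to 408.6 CPM in WT, from 377.6 to 446.1 in *pbp1Δ* and from 298.7 to 397 in *pab1Δpbp1Δ* (log2 fold change against *pbp1Δ* -0.19, SE 0.14, adjusted p = 0.296). *ADE8* ranged from 27.0 to 30.3 CPM in WT, from 27.6 to 30.0 in *pbp1Δ* and from 28.6 to 36.1 in *pab1Δpbp1Δ* (log2 fold change 0.19, SE 0.12, adjusted p = 0.202).

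*AAH1*, whose enzyme turns adenine into hypoxanthine, had the largest fall. It was at 152.9, 161.8 and 168.7 CPM in WT, at 137.4, 145.8 and 148.8 CPM in *pbp1Δ*, and at 45.2, 46.1 and 62.1 CPM in *pab1Δpbp1Δ*. The *pab1Δpbp1Δ* libraries were far below all others, and *pbp1Δ* lay a little below WT without overlap. The fall from *pbp1Δ* was 2.82-fold (log2 fold change -1.49, SE 0.14, adjusted p = 0.000219 by edgeR) and was called under all 15 alternatives, with log2 fold changes from -1.66 to -1.31.

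Without any 1 of the *pbp1Δ* libraries, *ADE17* and *AAH1* were the 2 genes still called, and *ADE1*, *ADE2* and *ADE12* lost their calls in the same direction. Without replicate 3 of *pab1Δpbp1Δ*, *ADE1* and *ADE2* lost theirs, and without replicate 2 *ADE2* did. The number of calls over all entries also fell in those fits, from 2285 to between 860 and 980 without a *pbp1Δ* library.

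In *pbp1Δ* against WT, 2 of the 10 genes were called higher and 0 lower by DESeq2, beside 1164 of 6849 entries in either direction. At an unadjusted p under 0.05, 3 were higher and 1 lower. By edgeR 1 was called higher and 0 lower, beside 5.34% and 6.24% of all entries. The gene was *ADE2*, at 1.22-fold (log2 fold change 0.28, SE 0.06, adjusted p = 0.00853). The call was lost with all 9 libraries in the fit (adjusted p = 0.537) and when WT replicate 2 or 3 or any 1 *pbp1Δ* library was left out. *ADE12* (log2 fold change 0.22, adjusted p = 0.0168) and *ADE1* (0.18, adjusted p = 0.0197) had libraries without overlap and missed the threshold, as did *AAH1* (-0.16, adjusted p = 0.0609). The share of all entries without overlap is not given for this comparison, so such separation is not read as a result about these genes. The other 6 genes had overlapping libraries and log2 fold changes between -0.16 and 0.07, and *ADE17* was at -0.04 (adjusted p = 0.621).

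In *pab1Δpbp1Δ* against WT, 4 of the 10 genes were called higher and 3 lower, beside 21.8% and 21.6% of all entries. The comparison shares its *pab1Δpbp1Δ* libraries with that against *pbp1Δ*, so the values are given side by side and are no repeat. *ADE17* was 4.97-fold higher (log2 fold change 2.31, SE 0.12, adjusted p = 4.12e-05), *ADE2* 2.38-fold (1.25, SE 0.21), *ADE12* 1.70-fold (0.77, SE 0.10) and *ADE1* 1.69-fold (0.75, SE 0.13). Each was called against *pbp1Δ* too. *AAH1* was 3.18-fold lower (log2 fold change -1.67, SE 0.14, adjusted p = 0.000125), *ADE6* 1.66-fold lower (-0.73, SE 0.17) and *ADE4* 1.46-fold lower (-0.54, SE 0.10), and the calls of *ADE6* and *ADE4* were lost under upper-quartile scaling. Without 1 of the WT libraries 3 or 4 of the 10 were called, with *ADE12*, *ADE17* and *AAH1* among them each time. *ADE13*, at -0.53 (adjusted p = 0.0161), was not called, but passed without replicate 1 of *pab1Δpbp1Δ* (-0.71, adjusted p = 4.42e-05), with DESeq2 (adjusted p = 0.00405), with all 9 libraries in the fit (adjusted p = 0.0055) and with the replicate number as a block (adjusted p = 0.00886). Under upper-quartile scaling *ADE13* was at -0.29 (adjusted p = 0.102).

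**Figure D4:**
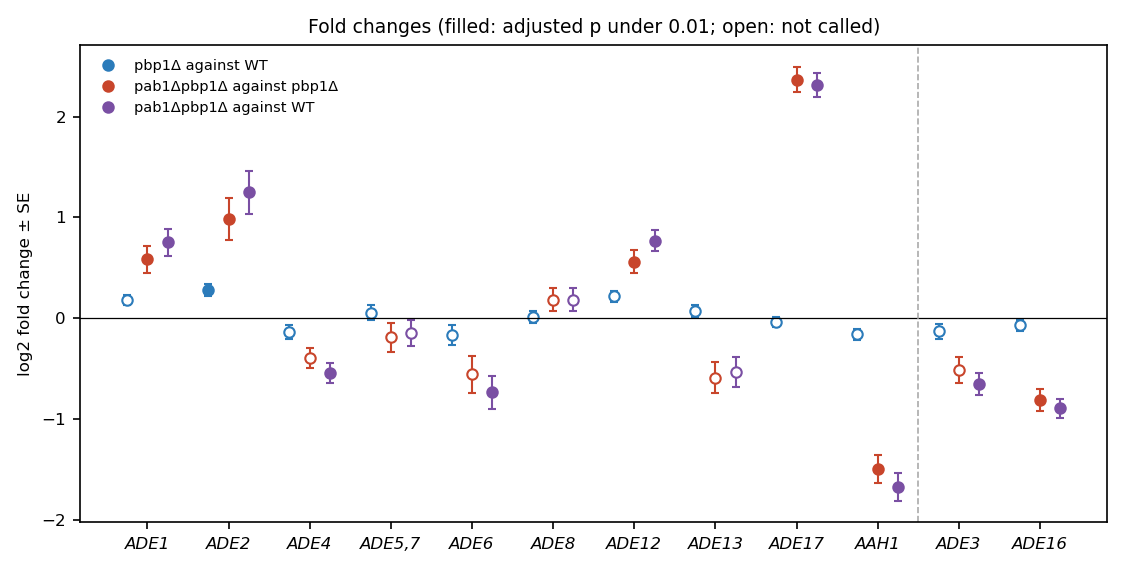
Log2 fold changes with their standard errors (vertical axis) for the 10 genes and, right of the dashed line, *ADE3* and *ADE16*, in *pbp1Δ* against WT (blue), *pab1Δpbp1Δ* against *pbp1Δ* (red) and *pab1Δpbp1Δ* against WT (purple). Filled points passed an adjusted p of 0.01. *ADE17* is at 2.37 against *pbp1Δ* and at -0.04 in *pbp1Δ* against WT, and *AAH1* at -1.49 and -0.16.

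The 10 genes with *ADE3* and *ADE16*, 12 in all, were also set beside the upstream word. Among them *AAH1* is not a gene of the synthesis pathway. Of the 8 with the word (7 members and *ADE3*), 4 were called higher and 0 lower by edgeR in *pab1Δpbp1Δ* against *pbp1Δ* (4 and 2 at an unadjusted p under 0.05, and 4 and 2 by DESeq2), and against WT 4 were higher and 1, *ADE3*, was lower. Of the 4 without it (*ADE4*, *ADE6*, *AAH1* and *ADE16*), 0 were higher and 2, *AAH1* and *ADE16*, were lower by edgeR against *pbp1Δ* (0 and 4 at an unadjusted p under 0.05 and by DESeq2), and all 4 were lower against WT. Over all entries edgeR called 18.0% higher and 16.7% lower against *pbp1Δ*, and 21.8% and 21.6% against WT. DESeq2 called 3116 of 6864 entries against *pbp1Δ* in either direction. The counts by word are over few genes, and no test was made of them. *ADE3*, which encodes the cytoplasmic enzyme that makes the one-carbon donor of the pathway, had log2 fold changes of -0.51 (SE 0.13, adjusted p = 0.0118) against *pbp1Δ* and -0.65 (adjusted p = 0.00191) against WT. Against *pbp1Δ* it passed without replicate 1 of *pab1Δpbp1Δ* (-0.56, adjusted p = 0.00133), with all 9 libraries in the fit and with DESeq2. In that comparison its adjusted p was 0.0617 without *pbp1Δ* replicate 2 and 0.0486 under upper-quartile scaling. Against WT its call was lost under upper-quartile scaling and without any 1 WT library.

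Of the mRNAs of the 2 regulators, 0 were called against *pbp1Δ* by edgeR (0 at an unadjusted p under 0.05 and 0 by DESeq2). *BAS1* was at 123.8, 134.4 and 140.1 CPM in WT, 114.2, 124.9 and 131.8 in *pbp1Δ* and 95.9, 129.7 and 115.4 in *pab1Δpbp1Δ*. *PHO2* was at 59.6, 59.2 and 62.0 CPM in WT, 53.2, 53.1 and 52.9 in *pbp1Δ* and 46.8, 45.9 and 58.5 in *pab1Δpbp1Δ*. For both, the *pab1Δpbp1Δ* libraries overlapped with those of *pbp1Δ*, with log2 fold changes of -0.12 (adjusted p = 0.45) and -0.08 (adjusted p = 0.599), whose sign turned under upper-quartile scaling (0.07 and 0.11).

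The order of the genes by level was compared per length, on FPKM. In WT it ran from *ADE6* (151.7 ± 8.46, SD, n = 3), *ADE5,7* (146 ± 7.12) and *AAH1* (144.2 ± 7.28), whose libraries overlapped, through *ADE13* (101.7 ± 1.89), *ADE4* (78.9 ± 6.62), *ADE1* (60.0 ± 1.43) and *ADE12* (58.8 ± 1.39), of which the last pair overlapped, to *ADE8* (40.8 ± 2.43), *ADE2* (18.7 ± 0.961) and *ADE17* (16.5 ± 0.331). The highest mean was 9.19 times the lowest. In *pbp1Δ* the order was the same but for exchanges between *ADE5,7* and *ADE6* and between *ADE12* and *ADE1*, whose libraries overlapped, and the ratio was 9.42. In *pab1Δpbp1Δ* the levels lay closer together, with a ratio of 2.93. There *ADE5,7* was first (175.7 ± 21.3) and did not overlap with the next, *ADE1* (134.5 ± 17.5), *ADE17* was the fifth (110.1 ± 19.0), and *ADE8*, *AAH1* and *ADE2* came last at 61.7 ± 6.23, 61.0 ± 14.4 and 60.0 ± 19.8, with libraries that overlapped. FPKM is not TMM-scaled, so these values are compared between genes of a strain and not between strains.

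Genes around the pathway were read from lists of related functions. The median log2 fold change of 11 genes for adenine uptake and salvage was -0.24 in *pab1Δpbp1Δ* against *pbp1Δ*. At an unadjusted p under 0.05, 5 fell and 1 rose. By DESeq2 4 fell and 1 rose, beside 3116 of 6864 entries called in either direction. By edgeR 4 fell and 0 rose, beside 16.7% and 18.0% of all entries. They were *APT1*, adenine phosphoribosyltransferase (-0.74, adjusted p = 0.00264), *AMD1*, AMP deaminase (-0.64, adjusted p = 0.00141), *MEU1*, methylthioadenosine phosphorylase (-0.63, adjusted p = 0.00372), and *FCY2*, the purine and cytosine permease (-0.62, adjusted p = 0.00308). Of the reads of 75 bases that *FCY2* can give, 53 of 1528 occur elsewhere in the genome. The calls of *APT1*, *FCY2* and *MEU1* were lost without any 1 *pbp1Δ* library and without replicate 3 of *pab1Δpbp1Δ*, those of *FCY2* and *MEU1* also under upper-quartile scaling, and that of *AMD1* without *pbp1Δ* replicate 2 or 3. *APT1* lay at 129.9, 131.5 and 131.9 CPM in *pbp1Δ* and at 89.2, 63.4 and 82.2 CPM in *pab1Δpbp1Δ*. In *pbp1Δ* against WT 3 of the 11 fell and 0 rose by edgeR, beside 6.24% and 5.34% of all entries (3 and 4 at an unadjusted p under 0.05, and 3 and 2 by DESeq2). They were *HPT1*, hypoxanthine-guanine phosphoribosyltransferase (-0.40, adjusted p = 0.00181), *FCY2* (-0.31, adjusted p = 0.00728) and *APT2* (-0.25, adjusted p = 0.00524). With all 9 libraries in the fit none of the 3 was called, *FCY2* and *APT2* also lost their calls under upper-quartile scaling, and without 1 library *FCY2* lost its call in 5 of 6 cases, *APT2* in 4 and *HPT1* in 1, that without *pbp1Δ* replicate 2.

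A further 5 genes encode PRPP synthetase subunits, which supply the carrier that both the pathway and salvage use. Of them 3 fell and 0 rose by edgeR against *pbp1Δ*, beside 16.7% and 18.0% of all entries. At an unadjusted p under 0.05 and by DESeq2 4 fell and 0 rose, and the median was -0.66. *PRS1* went from 381.9, 398.9 and 395.5 CPM to 213.2, 181.6 and 194.9 CPM (log2 fold change -0.997, SE 0.11, adjusted p = 0.000371). *PRS4* was at -0.79 (adjusted p = 0.00397) and *PRS3* at -0.66 (adjusted p = 0.000858). The call of *PRS4* was lost under upper-quartile scaling, without any 1 *pbp1Δ* library and without replicate 3 of *pab1Δpbp1Δ*.

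In the guanine nucleotide branch 1 of 5 genes rose and 1 fell against *pbp1Δ* by edgeR, beside 18.0% and 16.7% of all entries. By DESeq2 or at an unadjusted p under 0.05, 1 rose and 3 fell, with *IMD3* and *GUK1*, guanylate kinase, lower by DESeq2. *GUA1*, GMP synthetase, was at 1120, 1244 and 1189 CPM in *pbp1Δ* and at 577.5, 634.6 and 528.6 CPM in *pab1Δpbp1Δ* (log2 fold change -1.03, SE 0.13, adjusted p = 0.000639). *IMD2*, an IMP dehydrogenase, was at 84.3, 81.8 and 86.4 CPM in WT, 222.8, 250 and 227.3 CPM in *pbp1Δ* and 365.8, 325.6 and 305.1 CPM in *pab1Δpbp1Δ*. It was 2.78-fold higher in *pbp1Δ* than in WT (log2 fold change 1.48, SE 0.06, adjusted p = 7.34e-07) and 1.42-fold higher again in *pab1Δpbp1Δ* (0.51, adjusted p = 0.00713), a call that ended without any 1 *pbp1Δ* library and without replicate 2 or 3 of *pab1Δpbp1Δ*. *IMD2* has close copies, and 295 of its 1498 stretches of 75 bases occur elsewhere in the genome, so its counts rest in part on how reads were shared out. *IMD3*, another copy (132 of 1498), was called higher in *pbp1Δ* than in WT (0.37, adjusted p = 0.00474), a call lost with all 9 libraries in the fit, without any 1 WT library and without *pbp1Δ* replicate 2 or 3.

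Of 8 genes for glycine cleavage and one-carbon units, which the pathway draws on, 3 rose and 1 fell against *pbp1Δ* by edgeR. Over all entries edgeR called 18.0% higher and 16.7% lower. By DESeq2 4 rose and 2 fell, and the median was 0.37. The 3 that rose by edgeR encode subunits of the glycine cleavage complex. *GCV1* was at 32.6, 33.0 and 33.7 CPM in *pbp1Δ* and at 94.7, 82.5 and 111.6 CPM in *pab1Δpbp1Δ* (log2 fold change 1.54, SE 0.13, adjusted p = 0.000147), *GCV3* was at 1.43 (adjusted p = 0.000208) and *GCV2* at 0.76 (adjusted p = 0.000905). *LPD1*, the subunit that this complex shares with other dehydrogenases, was not called (-0.81, adjusted p = 0.0136). *MIS1*, the mitochondrial counterpart of *ADE3*, fell (-1.11, adjusted p = 0.000567). The upstream word was in 6 of these 8 genes, among them the 3 called higher and *LPD1*, which was lower by DESeq2 (adjusted p = 0.00126). It was in 3 of the 11 uptake and salvage genes, among them *APT1*, which fell. It was in 0 of the 5 genes of the guanine nucleotide branch and 0 of the 5 PRPP synthetase genes.

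Histidine synthesis meets purine synthesis at AICAR, which it gives off as a by-product. Of its 6 genes, *HIS5* rose (log2 fold change 0.92, SE 0.10, adjusted p = 0.000378), *HIS7*, whose enzyme forms AICAR, fell (-0.63, adjusted p = 0.00329), and 4 were not called, with a median of 0.02. Over all entries 18.0% were called higher and 16.7% lower by edgeR. The call of *HIS7* was lost under upper-quartile scaling, without *pbp1Δ* replicate 2 or 3 and without replicate 3 of *pab1Δpbp1Δ*. The word was in 5 of the 6, among them *HIS5* and *HIS7*. In *pbp1Δ* against WT *HIS4* fell (-0.55, adjusted p = 0.000299), a call lost with all 9 libraries in the fit (adjusted p = 0.194).

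**Figure D5:**
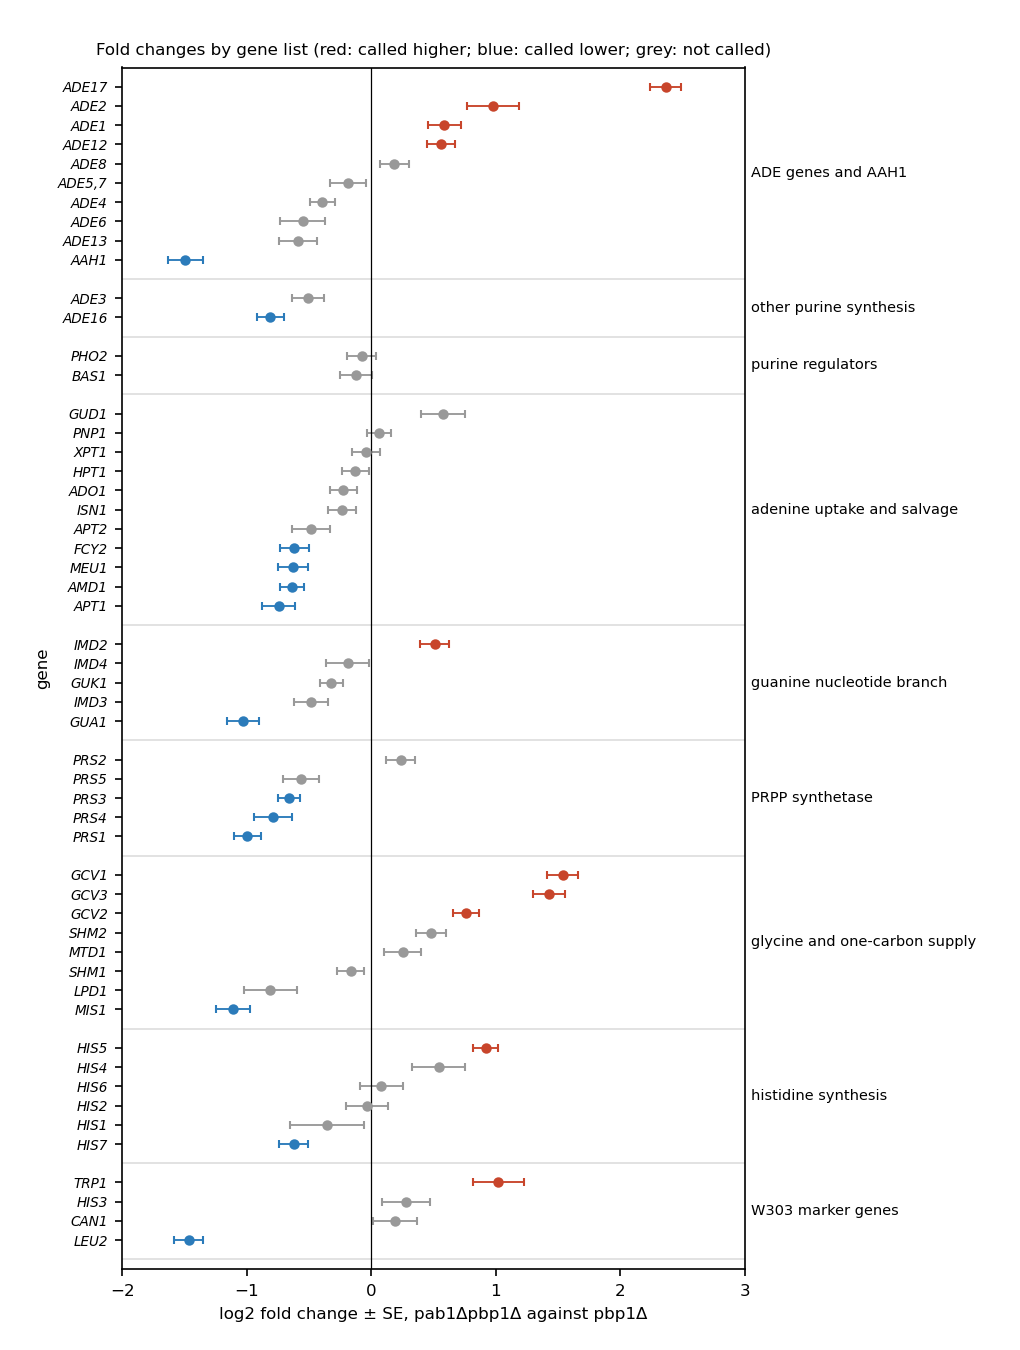
Log2 fold changes with standard errors in *pab1Δpbp1Δ* against *pbp1Δ* (horizontal axis) for the 10 genes and the lists around them, 1 row per gene. Red points were called higher, blue lower and grey not. The *ADE* genes lie on both sides of 0, *GCV1*, *GCV2* and *GCV3* on the right, and all called genes of salvage and PRPP synthesis on the left.

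*ADE2* can be read beside the other genes in which W303 carries a mutated allele. *CAN1*, whose *can1-100* allele also has a premature stop, was at 109.3, 102.8 and 110.6 CPM in *pbp1Δ* and at 91.2, 153 and 124.3 CPM in *pab1Δpbp1Δ* (log2 fold change 0.19, SE 0.17, adjusted p = 0.375). As for *ADE2*, replicate 1 was the lowest of the isolates and replicate 2 the highest. *TRP1*, with the stop allele *trp1-1*, rose from 6.18, 5.14 and 5.88 CPM to 8.85, 14.7 and 11.4 CPM (log2 fold change 1.02, SE 0.20, adjusted p = 0.00424), a call lost without any 1 *pbp1Δ* library and without replicate 3 of *pab1Δpbp1Δ*. *LEU2*, a frameshift allele, fell (log2 fold change -1.47, SE 0.12, adjusted p = 0.000139), and *HIS3*, also a frameshift allele, was not called (0.28, adjusted p = 0.241). Whether an allele bears on the level of its mRNA was not tested, as all strains carry the same ones.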

How the data were processed

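RNA-Seq data of WT, *pbp1Δ* and *pab1Δpbp1Δ* cells were used, 3 libraries per strain, grouped by their labels. A stranded kit with blocking of rRNA was used, and single-end sequencing ran for 75 cycles. The authors deposited expected counts per transcript without normalization, which RSEM estimated (RSEM 1.3.0, Bowtie 1.0.0 and build R64 in the submitters' processing notes). The authors also deposited FPKM, which divides by transcript length and by the number of aligned reads, and it was used to compare genes within a library or strain. The FPKM sum of *ADE16* and *ADE17* is given per strain beside their CPM. Use of strand in counting is not given in the sources used here. No spike-in is described, so levels are shares of the mRNA in each library.

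Counts were rounded and tested in R 4.3.3 with edgeR 4.0.16 (filterByExpr with a minimum count of 10, TMM scaling, robust quasi-likelihood test, adjusted p under 0.01) on the 6 libraries of each pair of strains. The standard error is the log2 fold change divided by the square root of F. All 10 genes passed the filter in each comparison. CPM are TMM-scaled over the 9 libraries. The code was run on simulated counts with known changes and the same spread in both groups. The spread of these strains is unequal, so that run cannot show how the test behaves on them. Sequences were read from the R64 genome and annotation of RefSeq, *ADE16* and *ADE17* were aligned with Biopython 1.88, and figures were drawn with matplotlib 3.10.9.

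Alternatives were an adjusted p under 0.05, RLE and upper-quartile scaling, DESeq2 1.42.0, no filter, a filter of 10 counts in each library, a fit on all 9 libraries, the authors' table per locus (6656 loci), a replicate block, and leaving out each library. The replicate numbers of the labels were checked by correlating deviations from the strain means. In *pab1Δpbp1Δ* against WT every same-numbered pair was over 0.1 (0.16, 0.23 and 0.21), from the data alone, and in the other comparisons not every pair was. Members and lists were chosen with earlier results of these data known. Named were all 10 members, *ADE3*, *ADE16*, *BAS1*, *PHO2* and, of the other lists, called genes up to 3 per list by size of change, and other genes of these lists were named after their values were seen. The study's ribosome profiling and proteome data were not analysed here. Tables of the authors' own comparisons were not used.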

Additional observations from a re-analysis of the deposited data

How the results depend on the processing

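Of the 10 genes, 5 were called when *pab1Δpbp1Δ* was set against *pbp1Δ*, 1 when *pbp1Δ* was set against WT, and 7 for *pab1Δpbp1Δ* and WT. With an adjusted p under 0.05 the counts were 8, 3 and 8, and with DESeq2 8, 2 and 8. Upper-quartile scaling gave 5, 3 and 5, and moved the median log2 fold change of all entries from 0.03 to 0.21 against *pbp1Δ* and from 0.03 to 0.28 against WT in *pab1Δpbp1Δ*. With all 9 libraries in the fit the counts were 7, 0 and 8, and with a replicate block 5, 4 and 8. The calls over all 6425 to 6866 entries tested moved as well. In the same order they were 2285, 744 and 2845 in the main fit and 3116, 1164 and 3647 with DESeq2. They were 2345, 681 and 2923 under upper-quartile scaling. With all 9 libraries they were 3120, 18 and 3637, and with the block 2153, 1448 and 2921. Same-numbered libraries correlated between -0.04 and 0.15 for *pab1Δpbp1Δ* with *pbp1Δ* and between -0.07 and 0.42 for *pbp1Δ* with WT, so the numbers were not taken to pair those samples. Leaving out 1 library gave 2 to 7, 0 to 1 and 3 to 8 calls among the 10 genes. Over all entries it gave 860 to 3917, 326 to 695 and 1387 to 4195. The 4 genes called higher in *pab1Δpbp1Δ* were so under all 9 alternatives that kept the 6 libraries of the pair. RLE scaling, the 2 other count filters and the table per locus left each count of members within 1.5 times.

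Signs turned only for uncalled values. Under upper-quartile scaling *BAS1* was at 0.065 and *PHO2* at 0.11 against *pbp1Δ*, *ADE5,7* at 0.10 and *BAS1* at 0.009 against WT in *pab1Δpbp1Δ*, all below the median of all entries under that scaling, and *ADE17* at 0.003 in *pbp1Δ* against WT. In *pbp1Δ* against WT, *ADE8* was at -0.003 without a filter and at -0.005, -0.028 and -0.015 without WT replicate 2, WT replicate 3 and *pbp1Δ* replicate 1, *ADE17* at 0.001 without *pbp1Δ* replicate 1, and *ADE5,7* at -0.017 without *pbp1Δ* replicate 2, within leave-out ranges of -0.028 to 0.047, -0.077 to 0.001 and -0.017 to 0.11. The cause was not tested. Each of the 10 genes had 1755 to 59396 counts per library, so the number of libraries limits these comparisons more than counting does.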

Other observations

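The entries whose pattern over the 9 libraries was most like that of the genes were ranked by Pearson's r on centred log2 CPM, over 5221 entries with a mean of at least 10 CPM. The points share strains and libraries, so these values describe the pattern and carry no test. For the mean of the 9 *ADE* genes the closest were *GCV2* (r = 0.9903), which encodes a subunit of the glycine cleavage complex, YMR317W (0.9872), *SSE2* (0.9868), *ENO1* (0.9849), an enolase, and *FPK1* (0.9839), and 420 entries reached 0.9. The mean joins genes that ran opposite ways, such as *ADE2* and *ADE13* (r = -0.948), and is not the pattern of each. Among the members, *ADE17* and *ADE2* were at r = 0.917 and *ADE17* and *ADE12* at 0.913, while *ADE17* was at -0.898 with *ADE4*, -0.91 with *ADE13* and -0.971 with *AAH1*.

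For *AAH1* the closest were *HOG1* (r = 0.9957), the stress-activated kinase, *PRI1* (0.9955), *HSP150* (0.9954), *CTI6* (0.9950) and *FRS1* (0.9947), and 1121 entries reached 0.9. For *ADE17*, a profile added to the planned ones, they were *ADR1* (0.9953), an activator of genes that are repressed by glucose, *BDH1* (0.9950), *GID11* (0.9945), *CTT1* (0.9944), the cytosolic catalase, and *PDR11* (0.9941), and 680 entries reached 0.9. With so many entries near the top, the order among them rests on small differences in r.

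Within *pab1Δpbp1Δ* the genes did not deviate together. On the log2 scale, replicate 1 was 0.27 above the strain's mean for *ADE1* and 0.33 above it for *ADE13*, but 0.52 below it for *ADE2* and 0.22 below it for *ADE17*. Replicate 3 was 0.35 below the mean for *ADE6* and 0.25 below it for *ADE5,7*, and 0.29 above it for *AAH1*.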
